A study of Homo sapiens with 20 samples.

Results

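The genes described here are 10 genes of cellular iron uptake, storage, export and sensing, measured by RNA sequencing in BEAS-2B cells, an established human bronchial epithelial line, exposed to nickel chloride (NiCl2). They are TFRC, SLC11A2 and STEAP3 for iron entry, FTH1 and FTL for iron storage, NCOA4 for ferritin turnover, SLC40A1 for iron export, and IREB2, ACO1 and FBXL5 for iron sensing. They were chosen by gene symbol, with earlier results of these data known. Per the files, in hg19 coordinates, TFRC lies at chr3:195776156-195809032 (minus strand), SLC40A1 at chr2:190425317-190445537 (minus strand), FTH1 at chr11:61731758-61735132 (minus strand) and FTL at chr19:49468567-49470136 (plus strand). All 10 were found among the 25411 genes in the count files.

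The nickel groups were Ni_3D (2 libraries), Ni_3D+14D (2 libraries), Ni_6W (2 libraries), Ni_6W+2W (2 libraries) and Ni_clone (6 libraries), and the controls were Control_3D (4 libraries) and Control_6W (2 libraries). D and W are read as days and weeks: the labels describe culture with NiCl2 for 6 weeks, followed in the +2W cells by washing and 2 weeks in medium free of nickel. Each clone library comes from a population grown in nickel-free medium from a single picked colony of cells exposed for 6 weeks. The labels give the dose of those cells as 100 mM, a unit that may be a typing error and could not be checked here. They speak of various concentrations for the exposure and give no dose for the other groups. The meaning of +14D is not spelled out in the labels. No genotype or transgene distinguishes the groups. The labels give no colony step for Control_6W, so in the clones nickel exposure and growth from a single colony cannot be told apart.

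Iron enters most cells on transferrin, which binds the transferrin receptor encoded by TFRC. In the endosome the ferrireductase STEAP3 reduces the iron and the transporter SLC11A2 carries it into the cytosol. Iron that is not used is stored in ferritin, a shell of heavy (FTH1) and light (FTL) chains, or leaves through ferroportin, encoded by SLC40A1. The iron regulatory proteins ACO1 and IREB2 bind hairpins called iron-responsive elements when iron is low. Binding in the 3' untranslated region protects TFRC mRNA, and binding in the 5' untranslated region blocks translation of ferritin and ferroportin mRNA, so the storage and export genes can be controlled with no change in RNA level. Nickel is known to act on several iron-dependent enzymes, among them the prolyl hydroxylases that mark hypoxia-inducible factors for destruction.

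The iron-responsive elements are shown because they set apart the members whose RNA level this pathway controls from those whose translation it controls. Each has the unpaired loop in capitals and is read 5′ to 3′ on the sense strand of a GENCODE v29 transcript (GRCh38). The search motif was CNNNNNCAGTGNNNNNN with the 5 bases on either side of the 6-base loop pairing (G with T allowed), on the sense strand only. TFRC held 4 matches in its 3' untranslated region, at chr3:196050979-196051007, chr3:196050575-196050603, chr3:196050510-196050538 and chr3:196050463-196050491 on the minus strand:
TFRC element A: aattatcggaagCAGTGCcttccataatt
TFRC element B: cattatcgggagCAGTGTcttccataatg
TFRC element C: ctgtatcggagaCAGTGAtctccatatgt
TFRC element D: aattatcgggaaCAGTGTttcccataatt
The storage and export genes held 1 match each in the 5' untranslated region, FTH1 at chr11:61967574-61967602 (minus strand), FTL at chr19:48965335-48965363 (plus strand) and SLC40A1 at chr2:189580661-189580689 (minus strand):
FTH1: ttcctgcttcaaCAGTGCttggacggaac
FTL: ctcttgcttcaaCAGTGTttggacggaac
SLC40A1: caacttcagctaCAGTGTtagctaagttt
SLC11A2 held a match in the 3' untranslated region at chr12:50988269-50988297 (minus strand) in which 1 of the 5 stem positions did not pair:
SLC11A2: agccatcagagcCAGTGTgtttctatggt
IREB2 and ACO1 each held such a match with 1 unpaired position in the 3' untranslated region, and STEAP3, NCOA4 and FBXL5 held none of either kind. A fully paired match was present in 291 of 19669 protein-coding genes (1.48%). A match describes these letters and was not tested as a binding site.

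The fold differences below come from edgeR's quasi-likelihood test on read counts, fitted over the whole table, with Benjamini-Hochberg (BH) adjustment over all genes tested, and a gene was called at an adjusted p under 0.05. Levels are CPM, read counts divided by library size after TMM scaling. Members are ranked against each other as the authors' RPKM, which is per kilobase. Where 1 library of a group of 2 was left out, the other was assumed to vary like the remaining groups. Libraries held between 8609243 (a Control_3D library) and 88848786 reads (a Ni_3D library), and every member was tested. Nothing in the labels says that libraries of a group came from separate cultures, so the p-values measure the spread between these libraries, which may be technical. In bulk RNA, fewer cells with a transcript and less of it per cell cannot be told apart. Groups this small often do not overlap. Of all genes at 1 CPM or more, 39.8% did not, in either direction, in Ni_3D and 23% in Ni_3D+14D, against Control_3D. Against Control_6W the share was 47.2% in Ni_6W, 44.3% in Ni_6W+2W and 24.7% in the clones. It was 55% for Ni_3D+14D against Ni_3D and 16.8% for Control_6W against Control_3D. Each gap between groups below is to be read beside these shares.

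Some libraries stood apart. Control_3D replicates 1 and 2 differed from replicates 3 and 4 in ZEB1, a transcription factor of mesenchymal cells (11.9 and 12.4 CPM against 1.05 and 1.76 CPM). Ni_3D replicate 1 and Control_3D replicate 1 held the oestrogen-responsive gene TFF1 at 33.3 and 20.1 CPM, against at most 0.116 CPM elsewhere. Ni_6W replicate 1 held the highest summed level of a list of 7 macrophage and immune markers (116 CPM, beside 42.9 CPM in Ni_6W replicate 2), while PTPRC, CD163 and CSF1R never reached 0.5 CPM. The summed level of 10 epithelial markers was 507 to 1410 CPM over the libraries. Of these, EPCAM was present in every group, at 1.58 to 9.59 CPM, and TP63, a marker of airway basal cells, never reached 0.5 CPM. CDH1 was 29.05 and 11.4 CPM in the 2 libraries that held TFF1 and at most 2.05 CPM elsewhere. EPCAM was also highest in those 2 libraries (9.59 and 5.97 CPM). The mesenchymal marker VIM was at 1528 CPM or more in every library.

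On the per-length scale the ferritin chains were the most abundant members. The median over the 20 libraries was 1812 RPKM for FTL and 633 RPKM for FTH1. TFRC followed at 56.3 RPKM, then NCOA4 at 37.1 RPKM and ACO1 at 36.6 RPKM. SLC11A2 stood at 12.9 RPKM, IREB2 at 7.04 RPKM, STEAP3 at 6.72 RPKM and FBXL5 at 5.92 RPKM. SLC40A1 was the lowest, at 0.882 RPKM, with 7 to 200 reads per library.

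**Figure D1:**
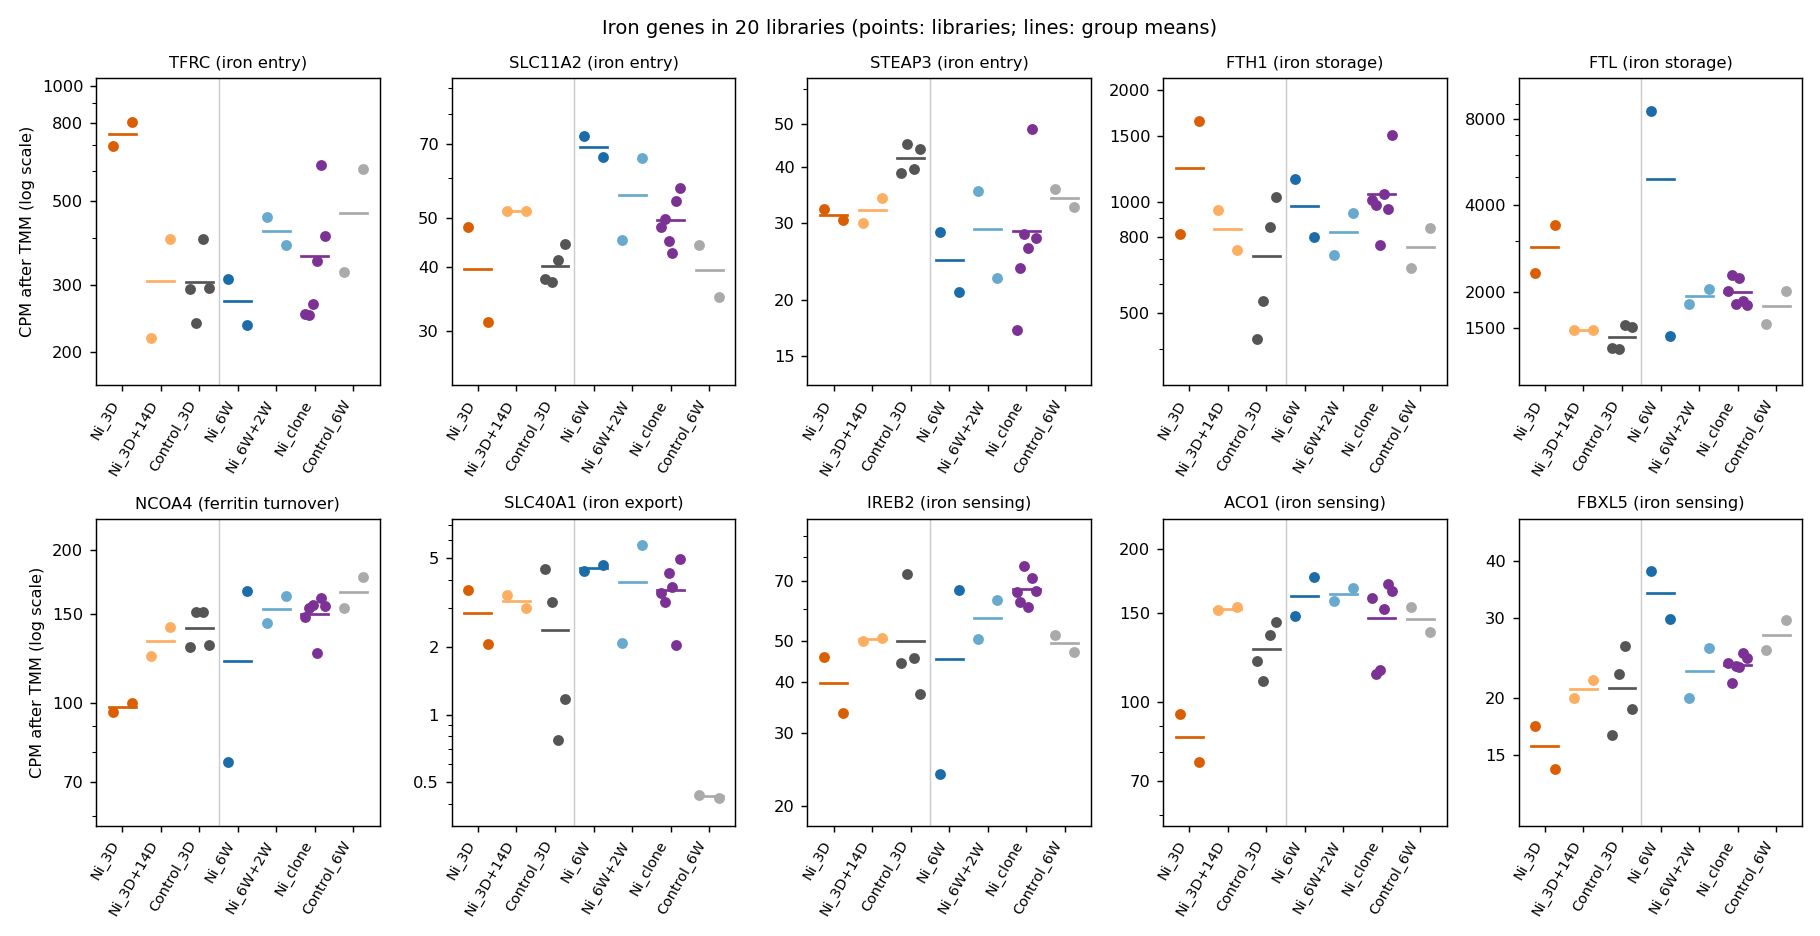
Level of each of the 10 iron genes, as CPM after TMM scaling on a log axis, with 1 point per library and a line at each group mean, for the 5 nickel groups and the 2 controls. TFRC in the 2 Ni_3D libraries (694 and 805 CPM) sits above all 4 Control_3D libraries, and SLC40A1 in both Control_6W libraries (0.438 and 0.425 CPM) sits below every other library.

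Among the genes of iron entry, TFRC was higher after 3 days of nickel. It stood at 694 and 805 CPM in Ni_3D, against 292, 239, 396 and 295 CPM in Control_3D. The nickel libraries lay above all 4 controls, and they were the highest of all 20 libraries. These 2 groups did not overlap, in either direction, in 39.8% of all genes at 1 CPM or more. The log2 fold change was 1.31 (SE 0.28, 95% interval 0.76 to 1.85), a 2.47-fold difference, and it was called (edgeR BH-adjusted p = 0.0272). TFRC alone of the 10 members was called in this comparison, beside 4.33% of all genes (2.83% called higher and 1.51% called lower). The call was lost with 4 of the 6 libraries left out in turn: Control_3D replicate 2 (1.21, adjusted p = 0.0706), Control_3D replicate 4 (1.28, adjusted p = 0.0615), Ni_3D replicate 1 (1.39, adjusted p = 0.0871) or Ni_3D replicate 2 (1.18, adjusted p = 0.155) by the same edgeR test. Without both libraries that held TFF1 it was 1.37 (adjusted p = 0.121), and with only 1 pair of controls it was 1.11 without replicates 1 and 2 (adjusted p = 0.0675) or 1.49 without replicates 3 and 4 (adjusted p = 0.074), also by edgeR.

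A list of 8 hypoxia-response genes moved in the same libraries. Its summed level was 3140 to 4170 CPM in Ni_3D, against 344 to 549 CPM in Control_3D, and edgeR called 6 of its 8 genes higher. The part of that response in the TFRC difference was not tested. The stretch of the TFRC promoter that holds ACGTG, the core that hypoxia-inducible factors bind, is shown for that reason, with those letters in capitals, from RefSeq (GRCh38.p14, chr3:196082144-196082208, minus strand). The capitals begin 88 bases before the annotated start:
TFRC promoter: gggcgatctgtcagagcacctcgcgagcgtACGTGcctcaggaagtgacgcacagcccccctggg
The 5 letters, on either strand, were found within 250 bases before the start in the RefSeq promoter entries of TFRC, FTL and FBXL5, and in 6501 of 35116 promoter entries (18.5%).

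The later groups did not show the TFRC level of Ni_3D. In Ni_3D+14D it stood at 218.5 and 395.8 CPM, which overlaps Control_3D (log2 fold change 0.00, SE 0.29). Against Ni_3D itself, the Ni_3D+14D libraries lay lower without overlap. These groups did not overlap, in either direction, in 55% of all genes at 1 CPM or more. The TFRC log2 fold change was -1.30 (SE 0.34, 95% interval -1.97 to -0.64). It was not called by edgeR (BH-adjusted p = 0.131) and was called by DESeq2 (adjusted p = 0.0124).

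At 6 weeks TFRC stood at 311 and 236 CPM in Ni_6W, against 325.5 and 604 CPM in Control_6W. Both nickel libraries lay below both controls, the nearest pair being 311 and 325.5 CPM. These groups did not overlap, in either direction, in 47.2% of all genes at 1 CPM or more. The TFRC log2 fold change of -0.76 (SE 0.33) was not called (edgeR BH-adjusted p = 0.169). It ran from -1.15 to -0.26 with single libraries left out. The response at 6 weeks minus the response at 3 days was -2.07 on the log2 scale (SE 0.44, 95% interval -2.93 to -1.21), with an unadjusted p of 0.000411 and an edgeR BH-adjusted p of 0.202. Of 11 settings that were not a single left-out library, only DESeq2 called it (adjusted p = 0.00287). With each of 10 libraries left out in turn, it ran from -2.44 to -1.54. The value of -2.44 was without Control_6W replicate 1, which left 1 control, and only that 1 of the 10 fits called it. TFRC was 453 and 382 CPM in Ni_6W+2W, inside the Control_6W range.

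SLC11A2, the divalent metal transporter, showed another order. It was 48.0 and 31.3 CPM in Ni_3D, against 37.3 to 44.5 CPM in Control_3D, so the nickel libraries lay on both sides of the controls. In Ni_6W it was 72.3 and 65.8 CPM, against 44.2 and 34.9 CPM in Control_6W, with no overlap, as in 47.2% of all genes at 1 CPM or more. The log2 fold change of 0.81 (SE 0.25) missed the threshold in edgeR (BH-adjusted) (adjusted p = 0.0767) and passed it in DESeq2 (adjusted p = 0.0253). Ni_6W+2W, at 45.2 and 65.7 CPM, also lay above both Control_6W libraries, with a log2 fold change of 0.48 (SE 0.24, edgeR BH-adjusted p = 0.417). The nickel libraries of Ni_3D+14D were nearly alike, at 51.5 CPM each, and stood above all 4 Control_3D libraries (log2 fold change 0.35, SE 0.21). Of all genes at 1 CPM or more, 44.3% did not overlap, in either direction, in Ni_6W+2W and 23% in Ni_3D+14D, against their controls.

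STEAP3, the endosomal reductase, had lower values under nickel at both times without being called. It was 32.2 and 30.4 CPM in Ni_3D and 29.9 and 34.1 CPM in Ni_3D+14D, against 38.9 to 45.1 CPM in Control_3D. In Ni_6W it was 28.6 and 20.9 CPM, against 35.6 and 32.6 CPM in Control_6W. The groups did not overlap in any of these 3 comparisons, which was also so for 39.8%, 23% and 47.2% of all genes at 1 CPM or more. The log2 fold changes were -0.41 (SE 0.21), -0.39 (SE 0.21) and -0.45 (SE 0.24), and edgeR gave BH-adjusted p = 0.248, 0.979 and 0.25.

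**Figure D2:**
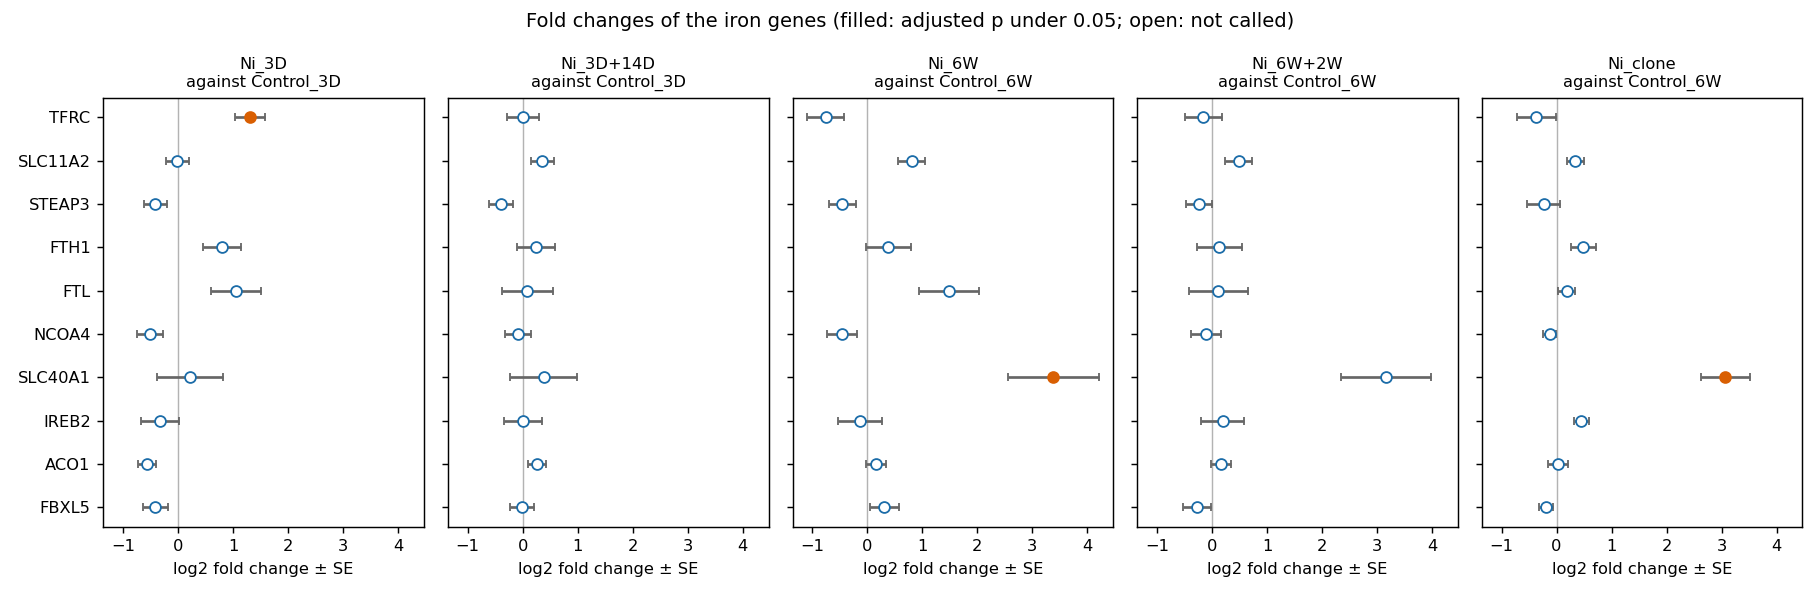
Log2 fold change with its standard error for the 10 iron genes in each nickel group against its control (horizontal axis, log2 scale), filled where the adjusted p was under 0.05. The filled points are TFRC in Ni_3D (1.31) and SLC40A1 in Ni_6W (3.38) and in the clones (3.07). In the clone comparison SLC40A1 passed the filter on low counts through the clones only.

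The ferritin chains, which store iron, were higher in the means of Ni_3D but were not called in the fit of all 14 libraries without clones. FTL was 2332 and 3422 CPM in Ni_3D, against 1278, 1271, 1537 and 1511 CPM in Control_3D. The groups did not overlap, as in 39.8% of all genes at 1 CPM or more. Its log2 fold change was 1.05 (SE 0.45, 95% interval 0.16 to 1.93), and it was not called (edgeR BH-adjusted p = 0.177). In a fit of these 6 libraries alone, which takes the spread from them only, it was called (1.04, SE 0.19, edgeR BH-adjusted p = 0.0299). The fit of 14 libraries also took its spread from Ni_6W, where FTL was 8475 and 1408 CPM. FTH1 was 815 and 1655 CPM in Ni_3D, against 426, 540, 852 and 1030 CPM in Control_3D, and these overlapped (log2 fold change 0.80, SE 0.35, edgeR BH-adjusted p = 0.175). The FTH1 log2 fold change was 0.19 without Ni_3D replicate 2 and 1.21 without Ni_3D replicate 1, and by control pair it was 0.38 with only Control_3D replicates 3 and 4 kept and 1.35 with only replicates 1 and 2 kept. The controls split here as they did in ZEB1, with replicates 1 and 2 below replicates 3 and 4. In Ni_3D+14D, FTL was 1485 CPM in both libraries and FTH1 was 948 and 742 CPM, inside their Control_3D ranges.

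At 6 weeks FTH1 was 1148 and 801 CPM in Ni_6W, against 661 and 847 CPM in Control_6W. These overlapped (log2 fold change 0.38, SE 0.41, edgeR BH-adjusted p = 0.588). A single library carried the 6-week FTL difference. FTL was 8475 and 1408 CPM in Ni_6W, against 1557 and 2020 CPM in Control_6W. The first nickel library was the highest of all 20 and the other lay below both controls, so the log2 fold change of 1.48 (SE 0.55, edgeR BH-adjusted p = 0.118) is set by replicate 1. Without Ni_6W replicate 2 it was 2.24, and without Ni_6W replicate 1 it was -0.35, each resting on 1 nickel library.

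That library also had a changed ratio of the chains. FTL took 0.805% of its reads. Its FTH1 level over its FTL level, in RPKM, was 0.096, against 0.403 in Ni_6W replicate 2 and 0.297 to 0.301 in Control_6W. Over the other 19 libraries the ratio lay between 0.236 and 0.594, with the highest value in clone 6. The same library had the highest immune marker sum, given above, and whether that bears on its FTL level was not tested. FTH1 and FTL have many processed copies in the genome; in the count table FTH1P3 held 248 reads over the 20 libraries, FTLP10 held 1, and FTH1P18, FTHL17 and FTMT held 0. How reads shared with such copies were treated is not given in the sources used here, so the ferritin levels are uncertain to that extent.

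**Figure D3:**
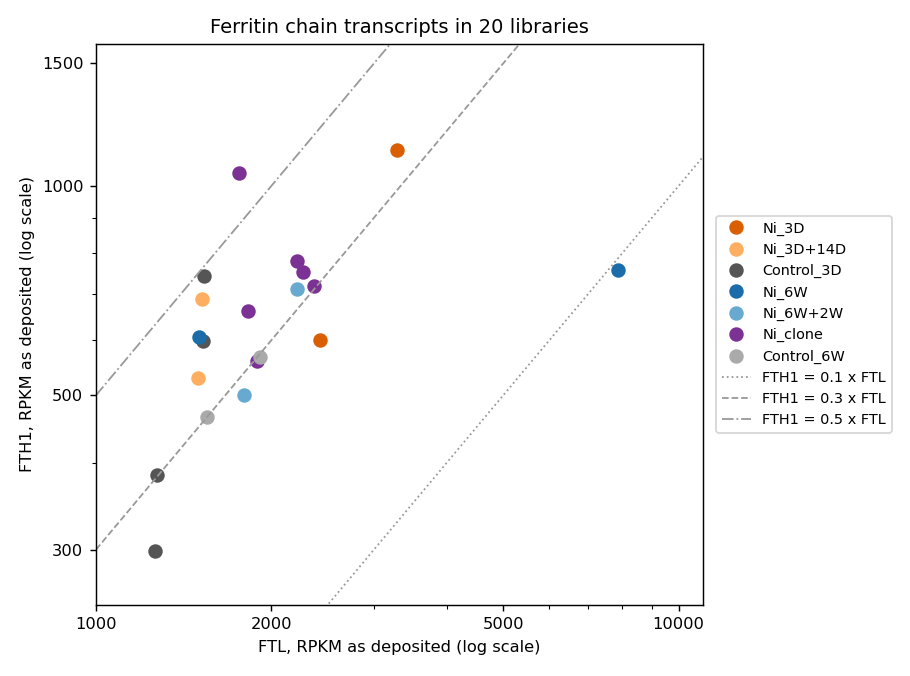
FTH1 (vertical) against FTL (horizontal) in each of the 20 libraries, both as deposited RPKM on log axes, coloured by group, with lines of constant ratio. Ni_6W replicate 1 sits alone at the right with a ratio of 0.096, and the other libraries lie between 0.236 and 0.594.

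NCOA4, the receptor that carries ferritin to the lysosome, was 96.0 and 100.3 CPM in Ni_3D, against 129 to 151.5 CPM in Control_3D. The nickel libraries lay below all 4 controls, with no overlap, as in 39.8% of all genes at 1 CPM or more. The log2 fold change of -0.51 (SE 0.24) was not called (edgeR BH-adjusted p = 0.212). In Ni_6W it was 76.4 and 166 CPM, against 154 and 177 CPM in Control_6W. The lower of these is replicate 1, the library with the high FTL. Leaving out Ni_6W replicate 2 left a log2 fold change of -1.13 on that library alone. With both it was -0.45 (edgeR BH-adjusted p = 0.305). In Ni_6W+2W, NCOA4 was 144 and 163 CPM, and in 5 of the 6 clones it was 148 to 161 CPM.

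SLC40A1, which encodes the iron exporter, had the widest range of group means (1.95 on the log2 scale, taken on log2 of CPM plus 1), and its lowest values were in the 6-week controls. It was 4.40 and 4.67 CPM in Ni_6W, against 0.438 and 0.425 CPM in Control_6W. Both nickel libraries were above both controls, with no overlap, as in 47.2% of all genes at 1 CPM or more. The nickel group held 154 reads of SLC40A1 and the control group 15. The log2 fold change was 3.38 (SE 0.82, 95% interval 1.77 to 4.99), a 10.4-fold difference, and it was called at an edgeR BH-adjusted p of 0.0499, just under the threshold. It was the only one of the 10 members called, beside 2.47% of all genes (1.25% called higher and 1.21% called lower). Without Control_6W replicate 1, Control_6W replicate 2 or Ni_6W replicate 1 the log2 fold changes were 3.40, 3.35 and 3.41 and the adjusted p was 0.122, 0.232 and 0.255 by edgeR, and in a fit of these 4 libraries alone it was 3.36 (adjusted p = 0.0607).

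SLC40A1 was also above both controls in the other 6-week nickel groups. Of all genes at 1 CPM or more, 44.3% did not overlap, in either direction, in Ni_6W+2W and 24.7% in the clones. In Ni_6W+2W, SLC40A1 was 2.08 and 5.74 CPM, against the same controls, with a log2 fold change of 3.16 (SE 0.81). It was not called by edgeR (BH-adjusted) (adjusted p = 0.256) and was called by DESeq2 (adjusted p = 0.0159). In that comparison no gene of the 14927 tested was called by edgeR (0 calls; 1956 had an unadjusted p under 0.05), and 320 were by DESeq2.

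In the clones SLC40A1 ran from 2.05 to 4.98 CPM, with a median of 3.61 CPM, against 0.438 and 0.425 CPM in Control_6W. All 6 clones lay above both controls, neither of which is labelled as grown from a single colony. The log2 fold change was 3.07 (SE 0.44, 95% interval 2.20 to 3.93), an 8.37-fold difference, and it was called (edgeR BH-adjusted p = 0.0115), beside 5.26% of all genes (2.89% called higher and 2.38% called lower). It was not called without Control_6W replicate 2 (3.04, edgeR BH-adjusted p = 0.119), a setting in which 6 genes were called over the whole table, against 746 with both controls. In this fit SLC40A1 passed the filter on low counts only through the clones, where it is high, so its call there is counted but supports nothing. With no filter the log2 fold change was 3.06 (edgeR BH-adjusted p = 0.00756), from the same reads. These 3 comparisons share the 2 Control_6W libraries, so they are not separate observations of the control level.

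SLC40A1 was not called in the 3-day groups. It was 3.62 and 2.07 CPM in Ni_3D and 3.42 and 2.99 CPM in Ni_3D+14D, against 4.46, 3.19, 0.774 and 1.17 CPM in Control_3D. The nickel libraries fell inside the spread of the controls, which split as they did in ZEB1, with replicates 1 and 2 high. In Ni_3D the log2 fold change was 0.22 (SE 0.60), and it ran from -0.44 without Control_3D replicates 3 and 4 to 1.59 without replicates 1 and 2. The response at 6 weeks minus the response at 3 days was 3.16 on the log2 scale (SE 1.02, 95% interval 1.16 to 5.17, edgeR BH-adjusted p = 0.323). Between the controls themselves, SLC40A1 was lower in both Control_6W libraries than in all 4 Control_3D libraries. These groups did not overlap, in either direction, in 16.8% of all genes at 1 CPM or more. The SLC40A1 log2 fold change was -2.51 (SE 0.75, edgeR BH-adjusted p = 0.577). Without Control_3D replicates 3 and 4 it was -3.14 and was called (edgeR BH-adjusted p = 0.0215), and without Control_3D replicates 1 and 2 it was -1.11 and was not (adjusted p = 1). Across all genes edgeR made 0 calls between the controls, where 1240 genes had p under 0.05 before adjustment and DESeq2 called 49.

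ZEB1, named here after its values were seen, was low in the same libraries. It was 15.9 and 18.1 CPM in Ni_6W and 7.75 to 14.6 CPM in the clones, against 0.608 and 0.986 CPM in Control_6W. The summed level of 8 fibroblast and mesenchymal markers overlapped between the groups (4600 to 6670 CPM in Ni_6W, 4340 to 11200 CPM in the clones, and 4680 to 6580 CPM in Control_6W), and DCN never reached 0.5 CPM. In Ni_6W, 3 of the 6 tested had a positive log2 fold change and COL1A2, a collagen chain, was called higher (6.24, SE 1.26, edgeR BH-adjusted p = 0.0497). In the clones all 5 tested were positive and 0 were called, with a median of 0.274 beside 0.014 over all genes. The part of this difference between libraries in the SLC40A1 values was not tested.

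The authors' deposited tables give SLC40A1 a log2 ratio of 2.19 in Ni_6W (1.18 against 0.109 RPKM) and 1.47 in Ni_6W+2W (1.07 against 0.109 RPKM). Those RPKM values themselves give log2 ratios of 3.44 and 3.30; how the authors' ratio was made is not given in the sources used here. Their ratios for the single clones ran from 0.614 in clone 5 to 1.63 in clone 6. In the authors' deposited table for Ni_3D the ratio was 1.12, on a control value of 0.254 RPKM. Both 3-day tables took their control RPKM from Control_3D replicates 3 and 4, the pair with low SLC40A1: their mean is matched within 1% in 100% of genes above 0.5 RPKM. In the Ni_3D table the nickel column equals the mean of the 2 Ni_3D libraries in 5.35% of genes, and for TFRC it holds 176 RPKM, above the 121 and 129 RPKM of those libraries. Its log2 ratio for TFRC was 1.06 on a control value of 58.1 RPKM.

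**Figure D4:**
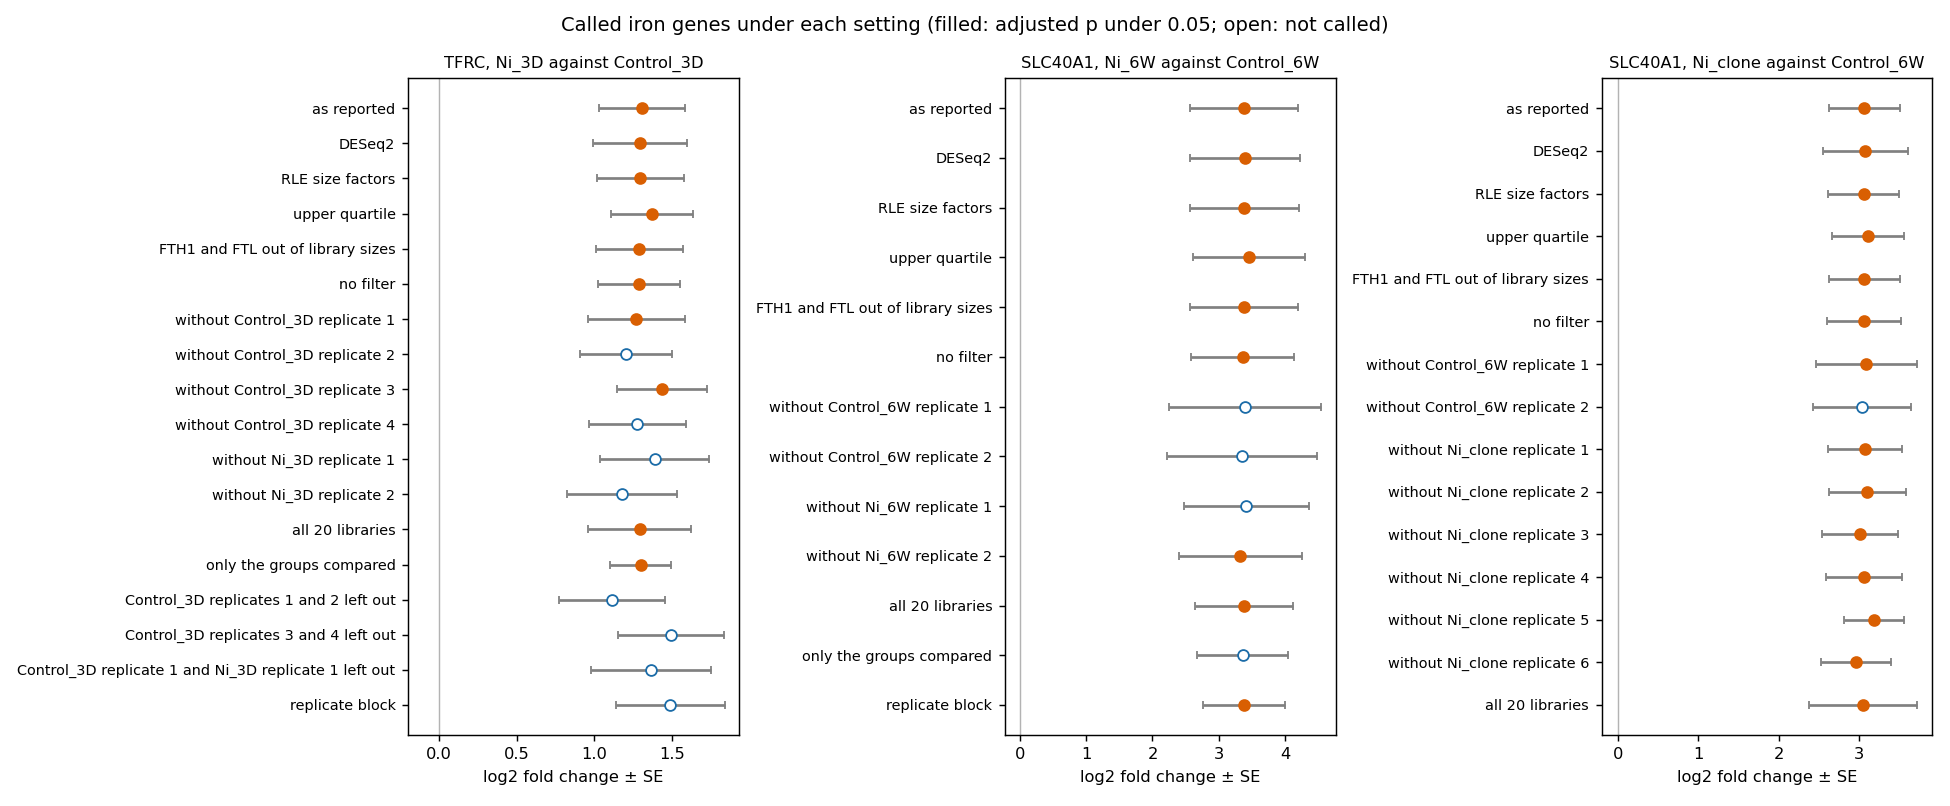
Log2 fold change with its standard error (horizontal axis, log2 scale) of the called results, TFRC in Ni_3D and SLC40A1 in Ni_6W and in the clones, as reported and under each other setting or left-out library. Filled points have an adjusted p under 0.05; the values stay on one side of 0 in all 3 panels (1.11 to 1.49 for TFRC), while the call changes.

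Among the iron sensors, ACO1, the regulatory protein that doubles as cytosolic aconitase, was 94.8 and 76.2 CPM in Ni_3D, against 121, 110, 136 and 144 CPM in Control_3D. Both nickel libraries lay below all 4 controls, with no overlap, as in 39.8% of all genes at 1 CPM or more. The log2 fold change was -0.57 (SE 0.17, 95% interval -0.89 to -0.24) and it was not called by edgeR (BH-adjusted) (adjusted p = 0.0674), but was by DESeq2 (adjusted p = 0.0104). In Ni_3D+14D it was 152 and 154 CPM, above both Ni_3D libraries, with no overlap, as in 55% of all genes at 1 CPM or more. Its log2 fold change against Ni_3D was 0.82 (SE 0.19, edgeR BH-adjusted p = 0.0852, and 0.00198 by DESeq2). In that comparison edgeR called none of the 10 members, beside 0.255% of all genes (0.121% called higher and 0.134% called lower). In Ni_6W, ACO1 was 148 and 176 CPM, against 154 and 138 CPM in Control_6W, and these overlapped.

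IREB2, the other regulatory protein, was 45.8 and 33.5 CPM in Ni_3D, within or just below the 37.2 to 72.9 CPM of Control_3D. In Ni_6W it was 23.9 and 66.5 CPM, against 51.9 and 47.2 CPM in Control_6W, and the low value was again that of replicate 1. The clones showed less spread. They ran from 60.5 to 75.9 CPM with a median of 65.9 CPM, all above both Control_6W libraries. These groups did not overlap, in either direction, in 24.7% of all genes at 1 CPM or more. The IREB2 log2 fold change was 0.45 (SE 0.13, edgeR BH-adjusted p = 0.0681, and 0.0136 by DESeq2).

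FBXL5, the iron-binding ubiquitin ligase subunit that marks IREB2 for destruction, was 17.4 and 14.0 CPM in Ni_3D, against 16.7 to 26.1 CPM in Control_3D. It was 38.1 and 29.9 CPM in Ni_6W, against 25.5 and 29.7 CPM in Control_6W, which is a gap of little size between the nearest libraries. In Ni_6W+2W it was 20.05 and 25.9 CPM. Neither comparison with controls was called (log2 fold change -0.41, SE 0.23, in Ni_3D and 0.31, SE 0.26, in Ni_6W). HERC2, a ligase known to act on FBXL5, was called in the clones and is given below.

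Over the whole set, 4 of the 10 members had a positive log2 fold change in Ni_3D and 6 a negative one, with a median of -0.169 beside 0.028 over all genes tested. The median was 0.046 in Ni_3D+14D (all genes -0.003), 0.234 in Ni_6W (all genes 0.027), 0.122 in Ni_6W+2W (all genes 0.015) and 0.107 in the clones (all genes 0.014). In Ni_3D+14D edgeR called 0 of the 10 members and 0 of all genes; 0 members and 613 genes had p under 0.05 before adjustment, and DESeq2 called 0 members and 16 genes. Against Ni_6W, Ni_6W+2W had 0 members and 0 genes called by edgeR (2 members and 983 genes with p under 0.05 before adjustment), and 0 members and 7 genes by DESeq2. The clones against Ni_6W+2W had 0 members called by edgeR and by DESeq2 and 0 with p under 0.05 before adjustment, beside 0.028% of all genes called by edgeR.

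The 6 clones differed among themselves most in TFRC, with an SD of 0.51 on the log2 scale, beside a median SD of 0.194 over genes at 5 CPM or more. TFRC ran from 251 to 619 CPM with a median of 307 CPM, and the highest value was in clone 5. STEAP3 followed with an SD of 0.474 and a range of 17.1 to 48.9 CPM, and clone 5 was again the highest. FTH1 (SD 0.321) ran from 763 to 1516 CPM, highest in clone 6, while FTL (SD 0.15) ran from 1809 to 2288 CPM. FBXL5 was the steadiest at an SD of 0.071, with 21.7 to 25.2 CPM. TFRC in the clones overlapped the 325.5 and 604 CPM of Control_6W, and the log2 fold change was -0.36 (SE 0.36).

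The 7 wider lists of iron genes, which do not overlap with the 10 members, held 4 called genes of 81 tested in Ni_3D (4.94%, beside 4.33% of all genes), 1 of 81 in Ni_6W (1.23%, beside 2.47%) and 7 of 76 in the clones (9.21%, beside 5.26%). No difference between these shares was tested, and the 4 in Ni_3D include TFR2, whose call supports nothing for the reason given below. Of 19 genes that partner iron entry and export, 10 were tested in the comparisons without clones, 8 in the clones against Control_6W and 9 in the clones against Ni_6W+2W. TFR2, a second transferrin receptor, held 57 and 51 reads in Ni_3D, against 1, 1, 0 and 0 reads in Control_3D. It passed the filter on low counts only through the 2 Ni_3D libraries, where it is high, so its call there is counted but supports nothing. The ratio of read shares was 39.99, with an exact 95% interval of 10.8 to 334, which covers counting error only. That interval rests on the libraries that brought TFR2 into the test, so it supports nothing either. SLC39A8, a zinc transporter that also carries iron, was called in the clones at 5.10 to 13.4 CPM (median 11.4 CPM), against 0.712 and 2.61 CPM in Control_6W (log2 fold change 2.72, SE 0.53, edgeR BH-adjusted p = 0.0251). It too was lower in Control_3D replicates 3 and 4 (1.12 and 1.52 CPM) than in replicates 1 and 2 (7.62 and 8.73 CPM).

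Of 14 cytosolic iron chaperones and sensor partners, 1 of the 11 tested was called higher in the clones, and none of 12 in the other comparisons with controls. That gene, HERC2, was 191 to 228 CPM in the clones (median 208 CPM), against 127 and 75.6 CPM in Control_6W (log2 fold change 1.05, SE 0.19, edgeR BH-adjusted p = 0.0197). HERC2 was also higher in Control_3D replicates 1 and 2 (199 and 215 CPM) than in replicates 3 and 4 (119 and 137 CPM). Of 9 mitochondrial iron import and storage genes, 8 were tested and 1 was called. CISD1, an iron-sulfur protein of the mitochondrial outer membrane, was 16.0 and 17.4 CPM in Ni_3D, against 24.5 to 40.9 CPM in Control_3D (log2 fold change -0.92, SE 0.21, edgeR BH-adjusted p = 0.0347).

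All 23 genes of iron-sulfur cluster assembly were tested. In Ni_6W only IBA57, a late assembly factor of mitochondria, was called lower, at 5.14 and 13.6 CPM against 26.7 and 46.8 CPM in Control_6W (log2 fold change -1.99, SE 0.42, edgeR BH-adjusted p = 0.0497). In the clones 3 were called lower (13% of the list, beside 2.38% of all genes): IBA57 (log2 fold change -1.11), NUBP1 (-0.58), a cytosolic scaffold, and HSPA9 (-0.55), a mitochondrial chaperone, with adjusted p = 0.0371, 0.0437 and 0.0444 by edgeR (BH-adjusted). Over 14 other settings these calls held in 8 for IBA57, 4 for NUBP1 and 6 for HSPA9, so the share of 13% rests on unsteady calls. The median log2 fold change of the list was -0.131 in the clones, beside 0.014 over all genes. It was -0.154 in Ni_3D, -0.08 in Ni_3D+14D, -0.067 in Ni_6W and -0.132 in Ni_6W+2W. Between the unexposed groups, Control_6W against Control_3D, it was -0.114. NUBP1 ran from 17.9 to 22.8 CPM in the clones (median 22.3 CPM), against 30.4 and 34.2 CPM in Control_6W. The groups did not overlap, as in 24.7% of all genes at 1 CPM or more. All 3 genes were also lower in Control_3D replicates 1 and 2 than in replicates 3 and 4. IBA57 was 21.5 and 20.9 against 31.8 and 24.8 CPM, and NUBP1 was 27.8 and 27.4 against 29.7 and 31.95 CPM. HSPA9 was 346 and 355.5 against 420 and 409 CPM.

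Of 11 heme synthesis genes, all tested, 1 was called in Ni_3D and none in the other comparisons with controls. ABCB6, a porphyrin transporter, was 98.2 and 60.1 CPM in Ni_3D, against 25.02 to 33.7 CPM in Control_3D (log2 fold change 1.37, SE 0.21, edgeR BH-adjusted p = 0.00634). Of 11 genes of heme degradation and transport, 11 were tested without the clones and 10 with them. LRP1, a receptor for heme bound to hemopexin, was called higher in Ni_3D (log2 fold change 1.06, SE 0.27, adjusted p = 0.0456) and in the clones (0.82, SE 0.20, adjusted p = 0.0437), both by edgeR (BH-adjusted). HMOX2, the constitutive heme oxygenase, was called lower in the clones, at 45.3 to 57.9 CPM (median 51.1 CPM), against 73.7 and 96.6 CPM in Control_6W (log2 fold change -0.73, SE 0.14, edgeR BH-adjusted p = 0.0232). It was also lower in Control_3D replicates 1 and 2 (57.6 and 50.6 CPM) than in replicates 3 and 4 (72.4 and 68.8 CPM). LRP1 did not split in this way (575.5 and 510 against 392 and 514 CPM). Of 7 other transcripts known to carry an iron-responsive element, 6 were tested without the clones and 5 with them, and none was called in any comparison with controls.

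Each of the 12 calls in the wider lists kept its direction, and each was lost with some single library left out. In Ni_3D, ABCB6 kept its call in 15 of 17 other settings, TFR2 in 9 of 16, CISD1 in 8 of 17 and LRP1 in 7 of 17. IBA57 in Ni_6W kept it in 9 of 12. Of 14 settings in the clones, HERC2 kept its call in 13, HMOX2 in 12, SLC39A8 in 11 and IBA57 in 8. There LRP1 kept it in 7, HSPA9 in 6 and NUBP1 in 4, and most of those losses came with both controls present. All 4 in Ni_3D were lost without Ni_3D replicate 1 (TFR2 4.63, CISD1 -0.88, ABCB6 0.95 and LRP1 0.62 on the log2 scale, with edgeR BH-adjusted p = 0.0929, 0.158, 0.0741 and 0.328), where calls over all genes fell to 139, against 647 with all libraries. IBA57 in Ni_6W was lost without Ni_6W replicate 1 (-1.44) or Control_6W replicate 2 (-1.53), with edgeR BH-adjusted p = 0.255 and 0.212. All 7 in the clones were lost without Control_6W replicate 2, a setting in which 6 genes were called over the whole table, against 746 with both controls. The log2 fold changes were then 3.91 for SLC39A8, 0.72 for HERC2, -0.66 for IBA57, -0.50 for NUBP1, -0.38 for HSPA9, -0.53 for HMOX2 and 1.06 for LRP1, and edgeR BH-adjusted p ran from 0.0925 to 0.367.

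Genes whose levels most resembled those of the members with the widest range are given as a description over the 20 libraries, which share groups and depth. The likeness is Pearson's r of log2 of CPM plus 1, among genes with a mean of 5 CPM or more. For SLC40A1 the nearest were PODN (0.946), CADM3 (0.927) and FRY (0.924). For TFRC they were MAT2A (0.773), ZNF398 (0.757) and RRAGA (0.736). For FTL they were IGSF8 (0.906), PDIA5 (0.889) and BET1L (0.889), which fell to 0.768, 0.612 and 0.609 without Ni_6W replicate 1.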

How the data were processed

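TruSeq RNA libraries were made from total RNA of BEAS-2B cells, per the labels' protocols. The authors deposited raw read counts per RefSeq gene with RPKM beside them, per the file headers, and 10 comparison tables holding mean RPKM, a log2 ratio made by the authors and test columns. In 2 deposited tables these are p-values, and in 8 the column so named holds a signed score of the authors; neither was used. The submitters' processing notes name the builds hg19 and GRCh37 and the tools DESeq2, DESeq and STAR 2.4. Their roles, and the counting, strand and treatment of multi-mapped reads, are not stated in what was used here.

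Libraries were grouped by their labels and joined by RefSeq identifier. All 14 non-clone libraries entered 1 fit in edgeR 4.0.16 (R 4.3.3; filterByExpr with minimum count 10 and minimum total 15, TMM, robust quasi-likelihood F test), and clones with Control_6W or Ni_6W+2W only. There were 11 comparisons, with Benjamini-Hochberg adjustment over all genes tested (14172 to 14927). The fit was tested on simulated data. DESeq2 1.42.0, other scalings, filters, fits and left-out libraries were the alternatives. Intervals on log2 fold changes are normal approximations from the SE. Intervals on ratios of reads cover counting error only. The genes named are the 10 members, up to 4 called genes of each wider list, identity markers, and the 3 genes most like each of the 3 members with the widest range. The members and lists were chosen with earlier results of these data known. Iron-responsive elements were searched in GENCODE v29 transcripts (GRCh38), and promoters are RefSeq entries, matched by symbol for 9 of the 10 members. No proteins were analysed here.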

Additional observations from a re-analysis of the deposited data

Results flagged for a closer look

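In each group of 4 or more libraries (Control_3D and the clones), each member was examined for a single library far from the rest, 20 examinations in all, of which chance gives about 1 in 20. STEAP3 stood at 48.9 CPM in clone 5, beside 17.1 to 28.3 CPM in the other 5 clones, and TFRC was also highest in that clone. NCOA4 stood at 125 CPM in clone 4, beside 148 to 161 CPM in the other 5 clones. Neither value was tested further.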

How the results depend on the processing

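No called member changed direction under any alternative; direction is not read for values that were not called. Over the 11 comparisons, 1667 recomputed fold changes of single members kept their side of the threshold, 20 gained a call and 13 lost one. Nearly all of the 1667 were uncalled values that stayed uncalled, and all 13 losses were among the 3 called results. TFRC in Ni_3D kept its call in 2 of 6 fits with a library left out and 7 of 11 other settings. For SLC40A1 these were 1 of 4 and 7 of 8 in Ni_6W, and 7 of 8 and 6 of 6 in the clones. The number of members called in Ni_3D against Control_3D was 1, and it was 2 under DESeq2, in a fit of all 20 libraries and in a fit of only these groups, 0 without Control_3D replicates 3 and 4, 0 without both libraries that held TFF1, and 0 to 1 with single libraries left out. Without Control_3D replicates 1 and 2 it was 1, but that member was ACO1 (-0.71, adjusted p = 0.0429 by edgeR). With a replicate block it was 0 (TFRC 1.49, adjusted p = 0.0908 by edgeR). The count in Ni_6W was 1, and it was 3 under DESeq2 and with all 20 libraries, 0 with only these groups, and 0 to 3 with single libraries left out. In Ni_6W+2W against Control_6W the count of 0 was 1 under DESeq2. In the clones it was 1, and it was 2 under DESeq2 and 0 to 1 with single libraries left out. The count of 0 in Ni_3D+14D against Ni_3D was 2 under DESeq2. In Ni_6W+2W against Ni_6W it was 0 to 2 with single libraries left out. In Control_6W against Control_3D the count of 0 was 1 without Control_3D replicates 3 and 4 and 1 with a replicate block (SLC40A1). For the 6-week minus the 3-day response it was 1 under DESeq2 and 0 to 1 with single libraries left out. The cause of these moves was not tested. Over all genes, Ni_3D had 647 called by edgeR, 1880 by DESeq2, and 65 without Ni_3D replicate 2; Ni_6W had 368, 2051 by DESeq2, 0 without Control_6W replicate 2 and 2871 without Ni_6W replicate 2. The labels do not tie replicate numbers to a shared culture or day, and same-numbered libraries did not deviate together in every pair of groups: the deviations correlated at -0.536 to 0.403, above 0.1 in 9 of 15 pairs of groups. With 2 libraries in most groups and 7 and 8 reads of SLC40A1 in the Control_6W libraries, the depth limits its fold.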
